A study of Mus musculus with 6 samples.

Results

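The genes described here are 10 members of 1 signaling route: the transducers *Smad1*, *Smad2*, *Smad3*, *Smad4* and *Smad5*, the inhibitory *Smad6* and *Smad7*, and the target genes *Id1*, *Id2* and *Id3*. All probes that the annotation of the array names for these genes were taken, which gave 15 probes for 9 of the 10 genes among 16593 genes named on the array. The annotation names no probe for *Smad7*, so it is not analysed here. Of the 15 probes, 14 were detected well enough to be tested. 

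Smad proteins carry signals of the TGF-β superfamily from the cell membrane to the nucleus. Receptors for bone morphogenetic proteins (BMPs) phosphorylate Smad1 and Smad5, receptors for TGF-β and activins phosphorylate Smad2 and Smad3, and both kinds of activated Smad pair with Smad4. Smad6 and Smad7 are induced by the pathway and restrain it. The *Id* genes are direct targets of the BMP branch, and Id proteins bind helix-loop-helix transcription factors and keep them off DNA. In osteoblast precursors BMPs favor differentiation toward bone-forming cells. Phosphorylation, which activates the Smad proteins, is not measured by an RNA array.

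RNA was taken from calvaria cells of C57BL/6 mice sorted for green fluorescent protein (GFP) and hybridized to Illumina MouseRef-8 beadchips. The 3 arrays labelled Mmp13 knock out hold, by the methods of the study, cells in which both copies of the gene for estrogen receptor α are floxed (ERα f/f;GFP:*Osx1-Cre*) and deleted where the *Osx1* (*Sp7*) promoter drives Cre. The 3 arrays labelled Wildtype carry cells of GFP:*Osx1-Cre* controls, so the transgene and the GFP are common to both groups. The names ERα deleted and control are used below. The methods describe the calvaria cells as isolated from mice a few days old and cultured. Neither pooling nor separate cultures for the arrays of a group are stated in the sources used here, so the p-values reflect array-to-array spread, which may be technical.

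*Mmp13*, the gene that the labels name as knocked out, read 12.70 ± 0.26 on the ERα deleted arrays and 9.47 ± 0.38 on the controls by its brightest probe (log2 signal, SD, n = 3 each), so the arrays labelled as its knockout held more of its RNA. The *Esr1* probes, for ERα itself, were not detected on any array (detection p from 0.164 to 0.984), so the deletion itself is not checked by these arrays. The study also measured ERα and *Mmp13* RNA by quantitative PCR in calvaria cells of both genotypes, and reports the *Mmp13* rise there too. The ERα deleted arrays correlated at 0.994 to 0.997 with each other and the controls at 0.949 to 0.988 (Pearson's r across tested probes, which are not independent). From 40.18% to 43.56% of probes were detected on an array. Of 8 tested osteoblast lineage markers 5 were higher and 1 lower, with a summed signal of 43975 to 47955 in ERα deleted cells and 37666 to 48932 in controls. Of 10 tested macrophage and myeloid markers 9 were lower, with a summed signal of 6739 to 7131 in ERα deleted cells and 9380 to 10742 in controls, while *Ptprc*, *Itgam* and *Acp5* were not detected on any array. Markers of dividing cells were higher in 7 of 7 tested genes, summing to 6387 to 6829 against 2222 to 2634. Of 2 tested endothelial markers none was called, and 7, *Pecam1* and *Cdh5* among them, were not detected on any array. In sorted cells measured in bulk, a change in the share of a cell type and a change of RNA per cell cannot be told apart, and the part of the marker shifts in the results below was not tested.

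With each gene read by its brightest probe, *Id2* was higher in ERα deleted cells, no gene was lower, and 8 of the 9 tested genes did not pass the threshold of an adjusted p of 0.05 (limma). At an unadjusted p under 0.05 there were 1 higher, *Id2*, and 1 lower, *Smad6*. The 1 call in 9 genes is 11.1%, while 20.7% of all 7695 tested genes were called, 10.5% higher and 10.2% lower. At an unadjusted p under 0.05 the share of all tested genes was 37.4%. Of the 14 tested probes of the set 1 was called, against 19.2% of all tested probes (9.69% higher and 9.51% lower). The groups of 3 arrays did not overlap for 5 of the 9 genes (*Smad2*, *Smad5*, *Id2* and *Id3* higher, *Smad6* lower), or 55.6%, against 44.2% of all tested genes. The median log2 fold change was 0.19 over the 9 genes and -0.03 over all tested genes, and the median size of the change was 0.19 in both. Fold changes here are ERα deleted over control on the authors' quantile-normalized log2 scale, from which no background was subtracted, so that changes of dim probes are understated.

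**Figure D1:**
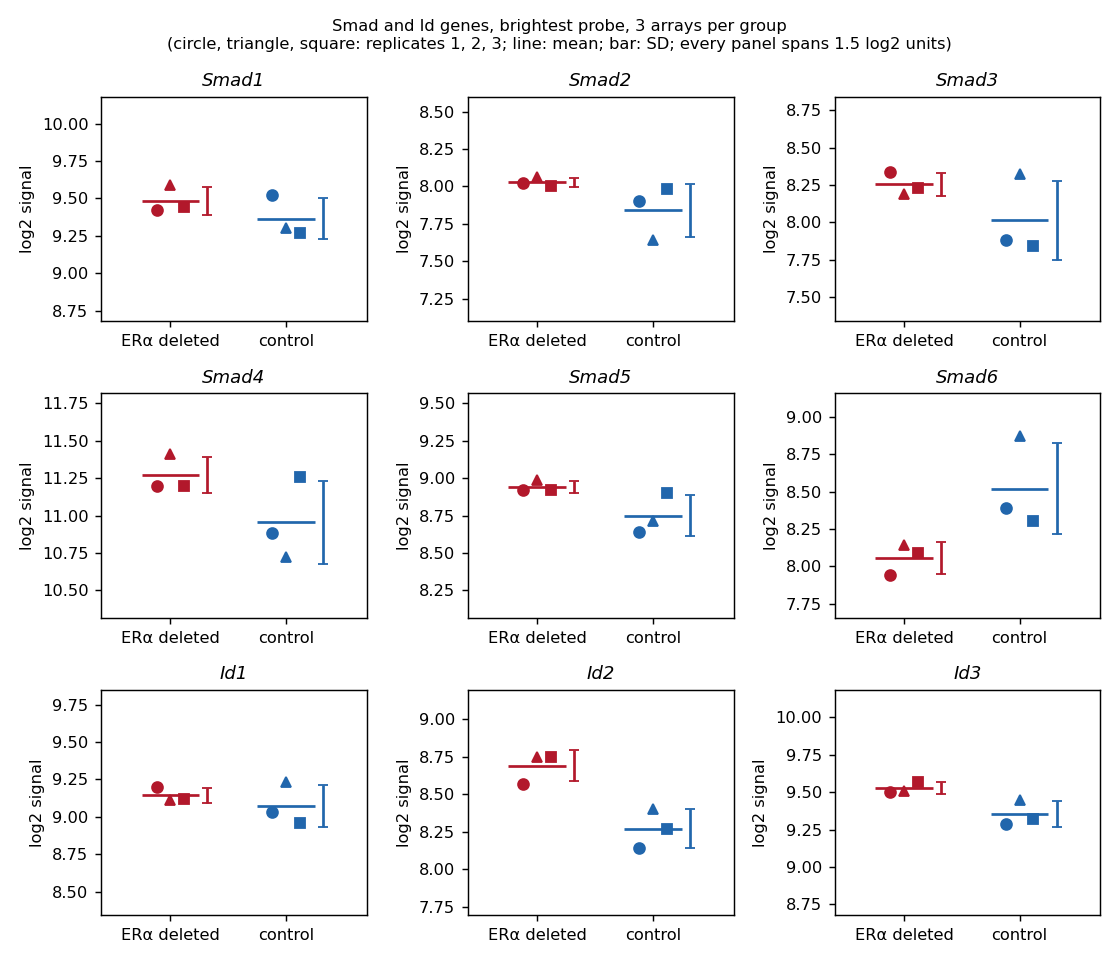
Normalized log2 signal (y axis) of the brightest probe of each Smad and Id gene in ERα deleted cells (left) and controls (right), with 1 point for each array, a line at the mean and a bar for the SD (n = 3). *Id2* and *Smad6* show the clearest separation, upward and downward, and for every gene the 3 control arrays were more spread than the 3 ERα deleted arrays.

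The spread itself was uneven. In ERα deleted cells the SD of the 9 genes ran from 0.03 to 0.12, and among the controls it ran from 0.09 to 0.31. The control SD was the larger in 9 of the 9 genes, and in 72.9% of all tested genes.

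Among the Smads of the BMP branch, *Smad1* was measured by a pair of well detected probes. Their estimates had opposite signs, but both intervals cross 0. The brightest (ILMN_2953700) read 9.42, 9.59 and 9.44 in ERα deleted cells and 9.52, 9.30 and 9.27 in controls. The groups overlapped, with a log2 fold change of 0.12 (95% interval -0.11 to 0.35, adjusted p = 0.397). The dimmer probe (ILMN_2671572) read 8.91, 8.95 and 8.96 in ERα deleted cells and 9.27, 9.25 and 8.98 in controls. All 3 ERα deleted arrays were below every control here, control replicate 3 only just above them, and the log2 fold change of -0.23 did not pass (interval -0.46 to 0.01, adjusted p = 0.146). A further probe (ILMN_1234354) was not detected at a p under 0.01 on any array and was not tested.

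*Smad5*, the close relative of *Smad1*, read 8.92, 8.99 and 8.92 in ERα deleted cells and 8.64, 8.71 and 8.90 in controls by its brightest probe (ILMN_1237371). The ERα deleted arrays lay above all controls by a narrow margin, and the log2 fold change was 0.19 (standard error 0.0914, interval -0.02 to 0.41, adjusted p = 0.175). Its other probes overlapped between groups, ILMN_3155789 with a log2 fold change of -0.16 (adjusted p = 0.462) and the dim ILMN_3076864 with 0.13 (adjusted p = 0.402). *Smad9*, the remaining Smad of this branch and not a member of the set, was not detected on any array (detection p from 0.723 to 0.977).

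The transducers of TGF-β and activins each had 1 probe. *Smad2* read 8.02, 8.06 and 8.0 in ERα deleted cells and 7.90, 7.64 and 7.98 in controls. The groups did not overlap, but control replicate 3 lay just under the ERα deleted arrays, and the log2 fold change of 0.19 did not pass (interval -0.06 to 0.43, adjusted p = 0.236). *Smad3* read 8.34, 8.19 and 8.23 in ERα deleted cells and 7.88, 8.32 and 7.84 in controls. Control replicate 2 lay within the ERα deleted range while the other controls lay below it, with a log2 fold change of 0.24 (interval -0.08 to 0.56, adjusted p = 0.24).

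*Smad4*, the partner that both branches share, read 11.20, 11.41 and 11.20 in ERα deleted cells and 10.88, 10.72 and 11.26 in controls. Control replicate 3 lay among the ERα deleted arrays and the others below them. Its log2 fold change of 0.31 was, among the brightest probes, second to that of *Id2* but did not pass (standard error 0.147, interval -0.03 to 0.66, adjusted p = 0.172).

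*Smad6*, an inhibitory Smad that BMPs induce, had the largest difference of the set. Its brightest probe (ILMN_2773835) read 7.94, 8.14 and 8.09 in ERα deleted cells and 8.39, 8.87 and 8.30 in controls. Every ERα deleted array was below every control, and control replicate 2 stood above the other controls. The scanner signals of this probe before normalization (the last 2 ERα deleted values being known by group only) were 181.1, 317.2 and 276.5 in ERα deleted cells and 343.9, 569.4 and 317.5 in controls. The means were 8.05 ± 0.10 and 8.52 ± 0.31 (SD, n = 3 each), a log2 fold change of -0.47 (standard error 0.154, interval -0.83 to -0.11), which is 1.38-fold lower and did not pass (adjusted p = 0.0751). With background correction (neqc of limma) it was -0.60 (adjusted p = 0.0862).

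The dimmer *Smad6* probe (ILMN_3008748) read 7.78, 7.54 and 7.58 in ERα deleted cells and 7.51, 6.72 and 7.71 in controls. The groups overlapped, and control replicate 2, the brightest control for the other probe, was the dimmest here and did not reach the detection limit. The log2 fold change was 0.32 (interval -0.24 to 0.89, adjusted p = 0.366), and 0.02 without control replicate 2 (adjusted p = 0.898). Background correction with all arrays gave 0.62 (adjusted p = 0.377). The estimates of the *Smad6* probes thus had opposite signs, but the interval of this dimmer probe crosses 0.

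Of the *Id* genes, *Id2* was the one that passed. Its brightest probe (ILMN_1228557) read 8.57, 8.75 and 8.75 in ERα deleted cells and 8.14, 8.40 and 8.27 in controls. All 3 ERα deleted arrays were above all controls. The means were 8.69 ± 0.11 and 8.27 ± 0.13 (SD, n = 3 each), a 1.34-fold difference, with a log2 fold change of 0.42 (standard error 0.0994, interval 0.19 to 0.65, adjusted p = 0.0257 from limma). Before normalization the scanner signals overlapped, at 266.3, 490.1 and 435 in ERα deleted cells and 288.8, 400.2 and 310.3 in controls. With background correction the log2 fold change was 0.52 (adjusted p = 0.0371). A two-sided exact permutation test of 3 against 3 arrays cannot go below p = 0.1.

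The dimmer *Id2* probe (ILMN_2887239) read 7.06, 7.21 and 7.22 in ERα deleted cells and 6.81, 7.08 and 7.09 in controls. The groups overlapped slightly, and the log2 fold change of 0.17 did not pass (interval -0.08 to 0.41, adjusted p = 0.282). The call for *Id2* rests on 1 probe. It was kept without ERα deleted replicate 1 (log2 fold change 0.48, adjusted p = 0.0471), control replicate 2 (0.49, adjusted p = 0.00601) or control replicate 3 (0.42, adjusted p = 0.0286). It was lost without ERα deleted replicate 2 (log2 fold change 0.39, adjusted p = 0.11), ERα deleted replicate 3 (0.39, adjusted p = 0.113) or control replicate 1 (0.36, adjusted p = 0.101), and with the signals scaled by their medians (0.36, adjusted p = 0.448).

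*Id1*, often read as the first sign of BMP signaling, read 9.20, 9.11 and 9.12 in ERα deleted cells and 9.03, 9.23 and 8.96 in controls. The groups overlapped, and the log2 fold change was 0.07 (interval -0.15 to 0.29, adjusted p = 0.606). *Id3* read 9.50, 9.51 and 9.57 in ERα deleted cells and 9.29, 9.45 and 9.32 in controls. The groups did not overlap, but the difference was small, with a log2 fold change of 0.17 (standard error 0.0803, interval -0.02 to 0.36, adjusted p = 0.17). *Id4*, outside the set, had a log2 fold change of 0.05 (interval -0.17 to 0.27, adjusted p = 0.702).

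**Figure D2:**
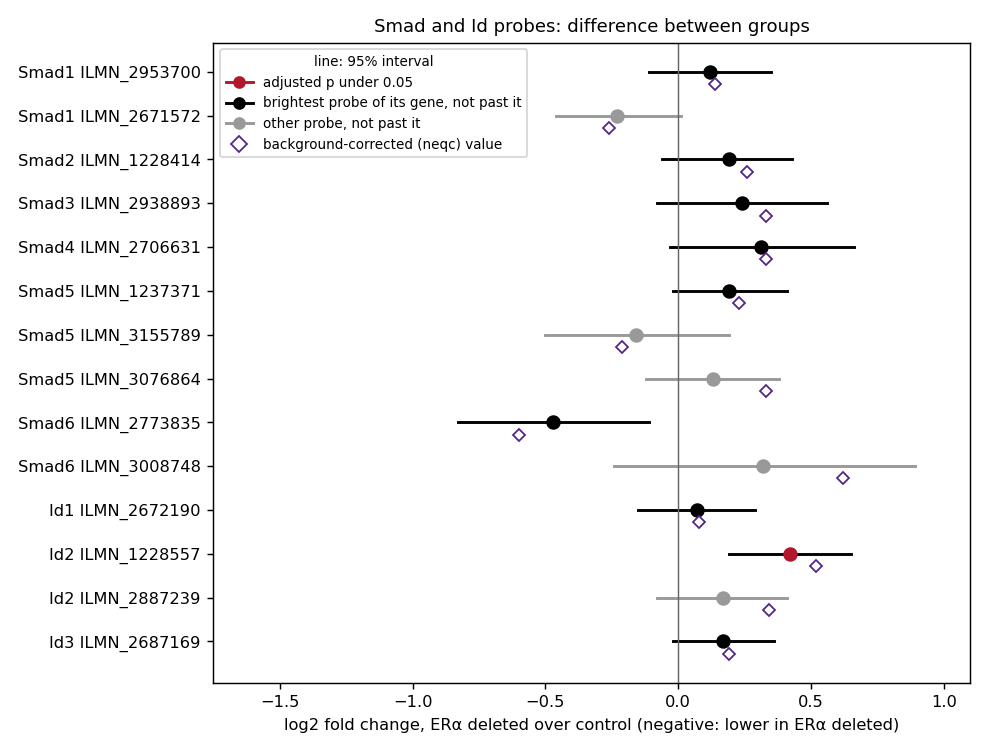
Log2 fold change (x axis, ERα deleted over control) of each of the 14 tested probes of the Smad and Id genes, with its 95% interval, and as diamonds the values after background correction. The interval of *Id2* ILMN_1228557 lies above 0 and that of *Smad6* ILMN_2773835 below it, and the other 12 intervals cross 0.

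For the *Id* genes and *Smad6*, which are read as outputs of BMP signaling, the sequence before the start of transcription shows what Smad binding motifs lie near it. RefSeq (GRCm38.p6) gave such windows for 6 of the 10 genes, and the 250 bases before the start are printed for *Id2*, which was called, and for *Id3* and *Smad6*, which were not. Capitals mark GTCT, the basic Smad binding element, read on both strands (as AGAC on the other), and GGCGCC, a GC-rich element that Smads of the BMP branch bind. The *Id2* window is chr12:25096093-25096342 on the minus strand, the *Id3* window chr4:136143572-136143821 on the plus strand and the *Smad6* window chr9:64022060-64022309 on the minus strand.
Id2: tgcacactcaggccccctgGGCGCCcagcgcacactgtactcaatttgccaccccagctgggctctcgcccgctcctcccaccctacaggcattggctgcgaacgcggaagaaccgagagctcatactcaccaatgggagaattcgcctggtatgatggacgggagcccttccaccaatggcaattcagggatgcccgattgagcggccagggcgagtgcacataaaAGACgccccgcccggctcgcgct
Id3: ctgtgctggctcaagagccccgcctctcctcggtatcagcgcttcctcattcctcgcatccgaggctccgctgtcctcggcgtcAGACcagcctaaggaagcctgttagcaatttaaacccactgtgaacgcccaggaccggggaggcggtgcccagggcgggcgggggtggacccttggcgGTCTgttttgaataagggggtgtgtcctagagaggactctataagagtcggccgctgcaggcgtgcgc
Smad6: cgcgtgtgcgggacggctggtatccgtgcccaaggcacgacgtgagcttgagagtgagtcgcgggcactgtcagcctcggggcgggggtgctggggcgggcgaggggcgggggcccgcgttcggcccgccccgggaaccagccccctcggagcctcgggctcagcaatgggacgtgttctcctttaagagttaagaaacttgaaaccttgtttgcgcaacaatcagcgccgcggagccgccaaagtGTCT

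The *Id2* window holds 1 GTCT element, 23 bases before the start, and 1 GGCGCC, 231 bases before it. The *Id3* window holds 2 GTCT elements and the *Smad6* window 1, and neither holds GGCGCC. Of all 32536 RefSeq windows of this length, 82.9% hold GTCT and 9.65% hold GGCGCC. The palindrome GTCTAGAC (0.169% of windows), which contains the shorter GTCT on both strands, and GGCGCC followed by GTCT after 5 further bases (0.0707%) were in none of the 3 windows. These are matches of letters only, and binding was not measured.

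Where a gene had several tested probes, the difference between their fold changes was tested, over all 3724 pairs of tested probes of 1 gene. The comparison was added after the values were seen. None of the 6 pairs from *Smad1*, *Smad5*, *Smad6* and *Id2* passed an adjusted p of 0.05, and 0.322% of all pairs did. At an unadjusted p under 0.05 there were 2 of the 6, against 19.4% of all pairs. The pair of *Smad1* probes differed by -0.35 (interval -0.60 to -0.09, adjusted p = 0.187) and the pair of *Id2* probes by 0.26 (interval 0.04 to 0.47, adjusted p = 0.219). The *Smad6* probes differed by -0.79, the widest gap of the set, with an interval from -1.73 to 0.15 (adjusted p = 0.312).

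Other calls appeared when a control array was left out. Without control replicate 2, *Smad3* was higher (log2 fold change 0.39, adjusted p = 0.0107) and *Smad6* was lower (-0.29, adjusted p = 0.049). Without control replicate 3, *Smad4* (0.47, adjusted p = 0.0164) and *Smad5* (0.27, adjusted p = 0.043) were higher, and *Smad6* (-0.58, adjusted p = 0.0252) and the dimmer probe of *Smad1* (-0.32, adjusted p = 0.0224) were lower. The array left out was in each of these cases but 1 the control farthest from the other controls for that probe, the exception being *Smad6* without control replicate 3. Over all probes 2129 were called with every array, 2602 without control replicate 2 and 3809 without control replicate 3.

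**Figure D3:**
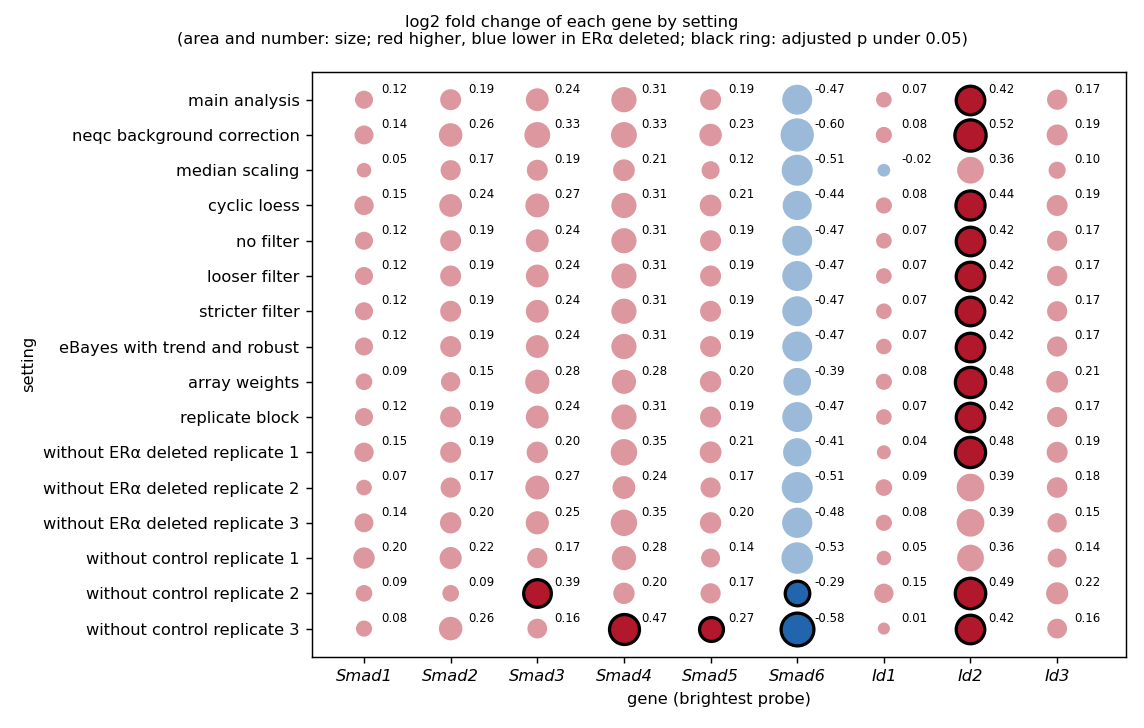
Log2 fold change (number beside each point, whose area follows its size) of the 9 tested genes (x axis) in the main analysis and under each alternative (y axis), with a black ring where the adjusted p was under 0.05. *Id2* was above 0 and *Smad6* below 0 in every row, and the rings of *Smad3*, *Smad4*, *Smad5* and *Smad6* appear only where control replicate 2 or control replicate 3 was left out. The rows of the other filters, trend with robust eBayes and the replicate block repeat the main fold changes by design.

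Genes around the Smads were read from lists of known regulators, partners and targets. Of the regulators of Smad proteins 27 were tested, with 3 higher, 3 lower and 21 not past the threshold (22.2% called, median log2 fold change -0.12). *Cited2*, a coactivator, fell by 0.53 on the log2 scale (standard error 0.101, adjusted p = 0.0122). *Ctdsp2*, a phosphatase that acts on Smads, rose by 0.48 (adjusted p = 0.0115), *Zeb1*, a repressor, by 0.39 (adjusted p = 0.0107) and *Wwp2*, a ubiquitin ligase, by 0.37 (adjusted p = 0.0458). The call of *Wwp2* was lost under 10 of its 15 alternatives, and those of *Cited2*, *Ctdsp2* and *Zeb1* under 4, 3 and 3. With 1 array left out, 0 to 4 of the list were higher and 0 to 7 lower, and with median scaling none was called.

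Genes known as induced by BMPs changed in both directions. Of 13 tested, 4 rose, 6 fell and 3 missed the threshold. That is 76.9% called against 20.7% of all tested genes, with a median log2 fold change of -0.35. A further 6 genes of the list were on the array but were not tested. *Id1*, *Id2*, *Id3* and *Smad6*, given above, are not in the list. *Smoc1* and *Hey1*, which were among those that rose, passed the filter through the ERα deleted arrays alone. The list was also chosen with earlier results of these data known, so these shares are a description only. With detection required on all 6 arrays, 2 rose and 5 fell. *Msx1*, a homeobox gene of the skull sutures, read 8.38, 8.47 and 8.29 in ERα deleted cells and 9.21, 9.65 and 9.05 in controls, with no overlap. It fell by 0.92 on the log2 scale (standard error 0.154, adjusted p = 0.0076), and its relative *Msx2* fell by 0.85 (standard error 0.0734, adjusted p = 0.00049). *Sp7*, the osteoblast transcription factor also called osterix, fell by 0.74 (adjusted p = 0.00334), and its promoter drives the Cre transgene in both groups. The BMP antagonists *Grem1* (-0.73, adjusted p = 0.00912), *Bmper* (-0.74, adjusted p = 0.00188), which binds BMPs, and *Nog* (-0.36, adjusted p = 0.037) were the others that were lower. With detection required on all 6 arrays *Msx1*, *Msx2* and *Sp7* kept their calls. Since 5 genes of the list were lower there, not all of *Grem1*, *Bmper* and *Nog* were called.

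The genes of that list that rose were *Smoc1*, *Hey1*, *Alpl* and *Tnfrsf11b*. *Smoc1*, a matricellular protein gene, read 7.33, 7.49 and 7.49 in ERα deleted cells and 6.43, 6.72 and 6.49 in controls, where it was not detected on any array, and was at least 1.57-fold higher (adjusted p = 0.00161). *Alpl*, which encodes the alkaline phosphatase of mineralizing cells, rose by 0.70 (adjusted p = 0.0182), and *Tnfrsf11b*, which encodes osteoprotegerin, by 0.67 (adjusted p = 0.00455). *Alpl*, *Tnfrsf11b*, *Grem1*, *Bmper* and *Nog* were named after their values were seen. With 1 array left out, 3 or 4 of the list were higher and 5 to 7 lower, and with median scaling 1 was higher and 1 lower.

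The genes known as induced by TGF-β numbered 28 tested, of which 2 rose, 3 fell and 23 missed the threshold (17.9% called, median -0.16). *Tgfbi*, a secreted matrix protein gene, rose 2.94-fold (1.55 on the log2 scale with a standard error of 0.108, adjusted p = 0.000229). The collagen chain gene *Col1a2* rose by 0.42 (adjusted p = 0.0451). The collagen genes *Col1a1* (-0.17, adjusted p = 0.551) and *Col3a1* (0.04, adjusted p = 0.832) of this list, named after their values were seen, were not called. *Tnc*, which encodes tenascin C, read 10.86, 10.74 and 10.89 in ERα deleted cells and 12.53, 12.58 and 12.13 in controls, 3-fold lower with no overlap (log2 fold change -1.59, adjusted p = 0.000414). *Tagln*, a smooth muscle type actin-binding protein gene, fell by 0.92 (adjusted p = 0.00049). The call of *Col1a2* was lost under 10 of 15 alternatives. With 1 array left out, 1 or 2 of the list were higher. The genes lower numbered 8 without control replicate 2 and 6 without control replicate 3. They numbered 2 without control replicate 1 or any 1 of the ERα deleted arrays.

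The helix-loop-helix factors that Id proteins bind, or that belong to the same family, showed 2 higher and 1 lower of 10 tested (30% called, median -0.05), and 1 higher and 1 lower with detection required on all 6 arrays. *Scx*, the tendon factor scleraxis, read 8.0, 8.17 and 7.91 in ERα deleted cells and 9.47, 9.52 and 9.23 in controls, and fell by 1.38 on the log2 scale (standard error 0.111, adjusted p = 0.000393). *Tcf4*, an E protein and so a direct partner of Id proteins, rose by 0.60 (standard error 0.119, adjusted p = 0.0142), a call lost without ERα deleted replicate 2, ERα deleted replicate 3 or control replicate 1 and with median scaling. *Hey1*, a repressor that is also in the BMP list, rose at least 1.5-fold (adjusted p = 0.00122 for the values as read, not for the bound). No control array reached the detection limit for *Hey1*, so it was tested through the ERα deleted arrays alone. A further 12 genes of this list were on the array but were not tested.

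Receptors and coreceptors showed 2 higher and 2 lower of 11 tested (36.4% called, median 0.08). With detection required on all 6 arrays there were 1 higher and 1 lower, since *Rgmb* and *Bmpr1b* were not detected throughout. With median scaling none of the 4 calls was kept (adjusted p = 0.0848 for *Rgma*, 0.0756 for *Bmpr1b*, 0.258 for *Acvrl1* and 0.303 for *Rgmb*). *Rgma*, a BMP coreceptor, rose by 0.77 (standard error 0.0917, adjusted p = 0.00178). *Bmpr1b*, a type I BMP receptor that phosphorylates Smad1 and Smad5, fell by 0.71 (adjusted p = 0.00431) and was detected on 1 of the 3 ERα deleted arrays. *Acvrl1*, another type I receptor, fell by 0.42 (adjusted p = 0.0258), a call lost on leaving out any 1 of the ERα deleted arrays or control replicate 1. *Rgmb*, a coreceptor related to *Rgma*, rose by 0.33 on the log2 scale (adjusted p = 0.0371), again with no control at the detection limit. With the controls set at that limit the difference was 1.06-fold, which was not tested. Its call was lost under 7 of 14 alternatives. The macrophage and dividing cell markers given above shifted on the same arrays as all of these lists.

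**Figure D4:**
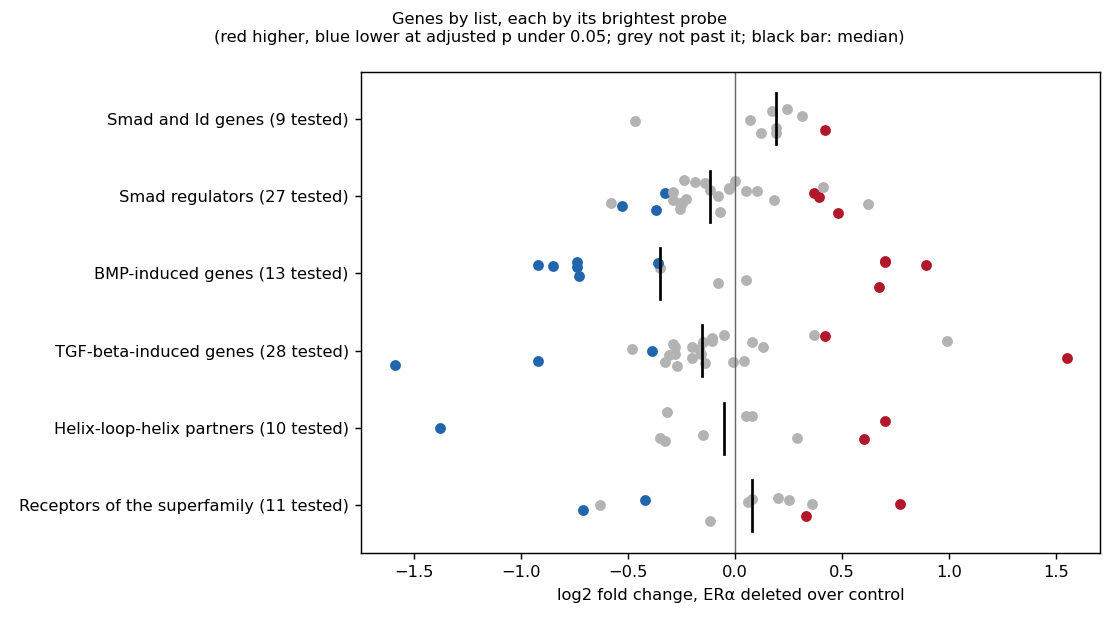
Log2 fold change (x axis, ERα deleted over control) of each tested gene of the Smad and Id set and of the 5 lists around it, each by its brightest probe, with the median as a black bar. The Smad and Id genes span -0.47 to 0.42, while the BMP-induced genes lie mostly at either side of that range and the TGF-β-induced genes reach from -1.59 to 1.55.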

How the data were processed

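Scanner intensities with a detection p-value per probe were deposited as the authors exported them from BeadStudio, with no background subtracted. The deposited log2 values were made by the authors with lumi (quantile normalization, version not given in the sources used here). Their largest gap to log2 quantile normalization of the intensities was 0.01465. Scanner rows were linked to probes by their ranks on 4 arrays (25697 of 25697 linked), since 2 ERα deleted columns share a heading and are known by group only. Symbols came from the platform annotation, updated through RefSeq (23978 probes with 1 symbol, 1719 not listed).

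The deposited log2 values were fitted with limma 3.58.1 in R 4.3.3 (lmFit, eBayes, no covariate), as in the study's methods. A probe was tested where 3 or more arrays had a detection p under 0.01 (11089, of which 2129, or 19.2%, were called), and p-values were adjusted by Benjamini-Hochberg over all of them. The filter can pass a probe through 1 group alone. The brightest probe stood for a gene. A group without detection had its fold given as a bound, with each array at the higher of its detection limit and its own value. The adjusted p beside a bound is for the values as read, and the bound itself was not tested. Intervals are 95% and unadjusted. Alternatives were neqc (offset 16), median scaling, cyclic loess, other filters, trend with robust eBayes, array weights (the weight fit stopped before converging), a replicate block, the probe with the smallest spread, and each array left out. The code was checked in a self-test. The number of arrays limits the precision. Named were all member probes and the 4 largest non-overlapping calls per list. Markers were given as counts and summed signals, with the names of some that were not detected. Members, lists and tests were chosen with earlier results of these data known.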

Additional observations from a re-analysis of the deposited data

How the results depend on the processing

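The 14 tested probes kept their direction in 207 of 208 values under the alternatives. This count includes values that could not differ. The other filters, trend with robust eBayes and the replicate block leave each fold change as in the main analysis. The fits with 1 array left out share most of their arrays. *Id1* changed sign with median scaling (-0.02). The number of Smad and Id genes called was 1 with most settings, 0 with median scaling, and 0 to 4 with 1 array left out (0 without ERα deleted replicate 2, ERα deleted replicate 3 or control replicate 1, 3 without control replicate 2 and 4 without control replicate 3). With median scaling 6 of the pathway genes were called, against 27 in the main analysis, and 14 to 39 with 1 array left out. Over all probes, 2129 were called in the main analysis, 358 with median scaling, 1331 with the replicate number as a block and 840 to 3809 with 1 array left out. The cause of these shifts was not tested. *Smad1*, read by the probe with the smallest spread in place of the brightest, had a log2 fold change of -0.23 (adjusted p = 0.146). Deviations of arrays with the same number were not alike (r = 0.105, -0.0552 and -0.0501), so the numbers were not taken as pairs, and under the block *Id2* alone was called among the Smad and Id genes. The stricter filter on all 6 arrays gives no value for the dim probes of *Smad5* and *Smad6*. Dim probes lie near background, where differences are compressed, and a miss there does not show that levels were alike.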
